A study of Mus musculus with 2 samples.

Results

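Pi16-low parenchymal fibro-adipogenic progenitors (FAPs) of injured muscle at 2 h were 1030 of the 1599 cells of the 2 h library that passed a FAP gate, of the 4900 cells kept in that library and of the 13047 cells kept in the series. They were taken by counts of unique molecular identifiers (UMIs, 1 per captured RNA molecule). A FAP had at least 1 Pdgfra UMI, at least 10 Dcn UMIs, at most 1 UMI of Ptprc and Cdh5 together, and a UMI in fewer than 3 of 8 tendon genes, and a Pi16-low FAP had at most 1 Pi16 UMI. The other 569 gated cells are called Pi16-high. The series asked which muscle cells make CCL2 early after damage. Wild-type C57BL/6J mice received 100 µl of 1.2% (w/v) barium chloride, a salt that kills muscle fibres, in the quadriceps, and the muscle was taken at 2 h or at 9 h. Mononuclear cells were cryo-preserved and put through 10x Genomics 3' droplet sequencing (v3.1 chemistry), with 1 library per time. No uninjured muscle and no genotype other than wild type was analysed here, and the number of animals behind a library was not given in the sources used here. With 1 library per time, no difference was tested across samples. All intervals are 95% intervals, which reflect counting error alone.

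FAPs are mesenchymal cells between the fibres of skeletal muscle. They are marked by Pdgfra, lay down matrix and send signals to muscle stem cells and leukocytes after damage. In many tissues fibroblasts fall into a Pi16- and Dpp4-bearing kind that lies in the adventitia, the sleeve of connective tissue around vessels and nerves, and a Col15a1-bearing kind that lies among the working cells of the organ. The second kind is called parenchymal here.

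Pi16-low FAPs made up 21.0% of the kept 2 h cells (exact binomial interval 19.9 to 22.2%) and held 30.4% of their UMIs, 8389677 in all. Their median depth was 7955 UMIs and 2469 genes, against 8956 UMIs and 2687 genes in Pi16-high FAPs. The median mitochondrial share was 3.81% in Pi16-low and 3.89% in Pi16-high FAPs. Pi16-low FAPs at 9 h, taken by the same gate, numbered 1235 with a median of 8516 UMIs and a mitochondrial share of 2.73%. Of the barcodes kept in both libraries, 12 in all, 1 belonged to a Pi16-low FAP at 2 h.

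Because Pi16 chose the cells, the differences from Pi16-high FAPs describe the choice and were not tested. Marker levels differed with the number of Pi16 UMIs, though not always in order. Among gated 2 h cells, 822 had 0 Pi16 UMIs and 208 had 1, just inside the limit, while 67 had 2, just outside it, and 333 had 10 or more. Cxcl14, which encodes a chemokine of resting fibroblasts, was at 4169 CPM (the gene's UMIs as counts per 1000000 UMIs of the group) in cells with 0 Pi16 UMIs, 3309 with 1, 2635 with 2 and 466 with 10 or more. Col15a1 had 1029, 1003, 799 and 103 CPM in the same order of cells. Dpp4, a surface peptidase of adventitial fibroblasts, had 44.2, 81.1, 145 and 419 CPM. In the classes between, Cxcl14 was at 1138 CPM with 3 Pi16 UMIs and 1623 with 4 to 9. Ccl11, another of the parenchymal markers, was at 2567 CPM with 0 Pi16 UMIs, 2803 with 3 and 835 with 10 or more. The levels thus differed on both sides of the limit as well as across it, and cells with 10 or more Pi16 UMIs stood furthest from cells with 0. The other limits were read only in cells with at most 1 Pi16 UMI. Of these, 187 gated cells had just 1 Pdgfra UMI while 167 were kept out for lack of one. For Ptprc and Cdh5 together, 38 gated cells had 1 UMI and 13 were kept out with 2. For the tendon genes, 24 gated cells had 2 and 8 were kept out with 3. For Dcn, 4 gated cells had 10 to 12 UMIs and 3 were kept out with 7 to 9. Pi16 UMIs were also present in 27.9% of neutrophils of the library, at 161 CPM, and the part of such UMIs in the split was not tested.

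**Figure D1:**
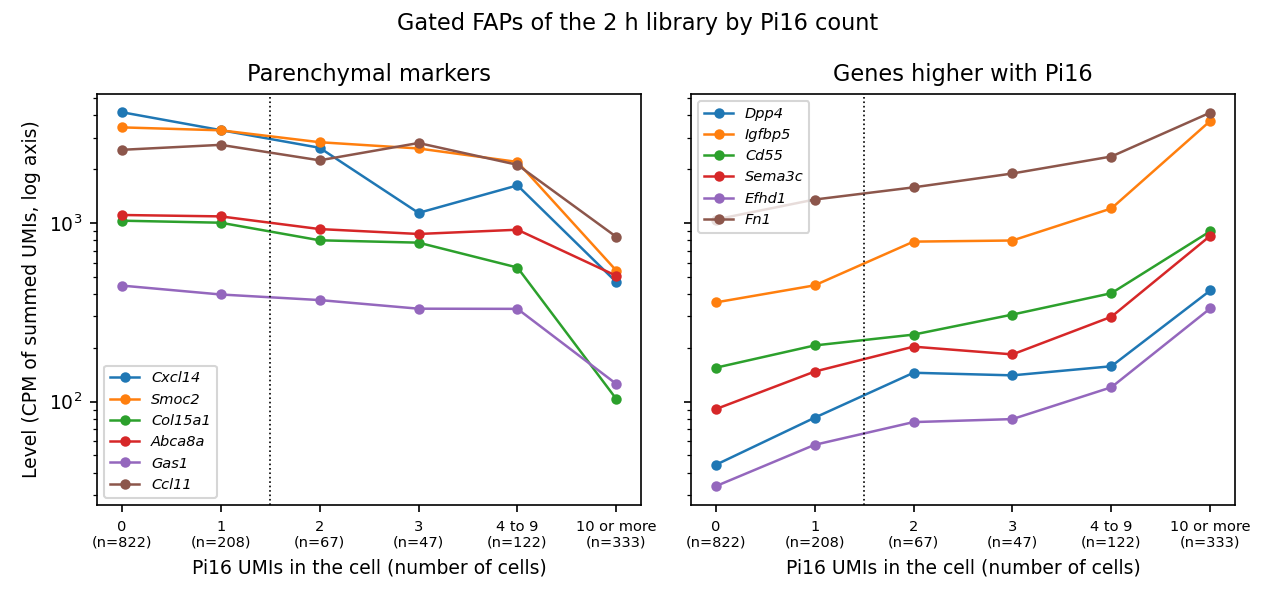
Levels (CPM of summed UMIs, log axis) of the 6 parenchymal markers (left) and of 6 genes that were higher with Pi16 (right) in gated FAPs of the 2 h library, by the number of Pi16 UMIs in the cell, with the number of cells under each class. The dotted line is the limit between Pi16-low and Pi16-high FAPs. Dpp4 was at 81.1 CPM at 1 Pi16 UMI and 145 CPM at 2, and Igfbp5 at 447 and 786 CPM.

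The parenchymal label was read against 6 markers that came with the rule. All 6 were higher in Pi16-low than in Pi16-high FAPs. Cxcl14 (mm10 chromosome 13, 56288643 to 56296551, minus strand) was at 3993 CPM in Pi16-low FAPs (Poisson interval 3951 to 4036) and 1006 in Pi16-high FAPs. Smoc2 (chromosome 17, 14279506 to 14404790, plus strand), a matricellular protein that binds calcium, was at 3403 and 1309 CPM. Col15a1 (chromosome 4, 47208161 to 47313167, plus strand), a collagen that bridges basement membranes to the matrix, was at 1024 and 331 CPM. Levels of Gas1 (chromosome 13, 60174405 to 60177365, minus strand), a co-receptor for hedgehog proteins, were 436 and 212 CPM. Those of Ccl11 (chromosome 11, 82057823 to 82062955, plus strand), a chemokine for eosinophils, were 2602 and 1418 CPM. Abca8a (chromosome 11, 110025634 to 110095978, minus strand), a lipid transporter, had the smallest contrast, with 1104 and 668 CPM. Pi16-low FAPs held 74.3% of all Cxcl14 UMIs of the kept 2 h cells, 70.6% of those of Col15a1 and 58.0% of those of Gas1.

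Most single cells carried the markers together. With each cell thinned to 3000 UMIs (973 Pi16-low FAPs, 57 being too shallow), the median Pi16-low FAP had 5 of the 6 markers and 82.3% had at least 4, whereas the median Pi16-high FAP had 3 and 34.9% had at least 4. Of 17 adventitial genes other than Pi16, the median was 5 in Pi16-low and 11 in Pi16-high FAPs. At least 6 of the 17 were found in 48.4% of Pi16-low and 89.6% of Pi16-high FAPs. With each cell thinned to 1000 UMIs, Cxcl14 had a UMI in 64.9% of Pi16-low FAPs (unthinned 79.3%) and 19.7% of Pi16-high FAPs (36.9%). Cells of other types had lower shares. In neutrophils of the same library (median 2096 UMIs), Cxcl14 was found in 2.14% of thinned cells, and in endothelial cells (median 3210 UMIs) in 0.995%. Col15a1, in 52.4% of thinned Pi16-low FAPs (unthinned 87.2%), was found in 0.712% of neutrophils but in 7.96% of endothelial cells, which carried 122 CPM of it.

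**Figure D2:**
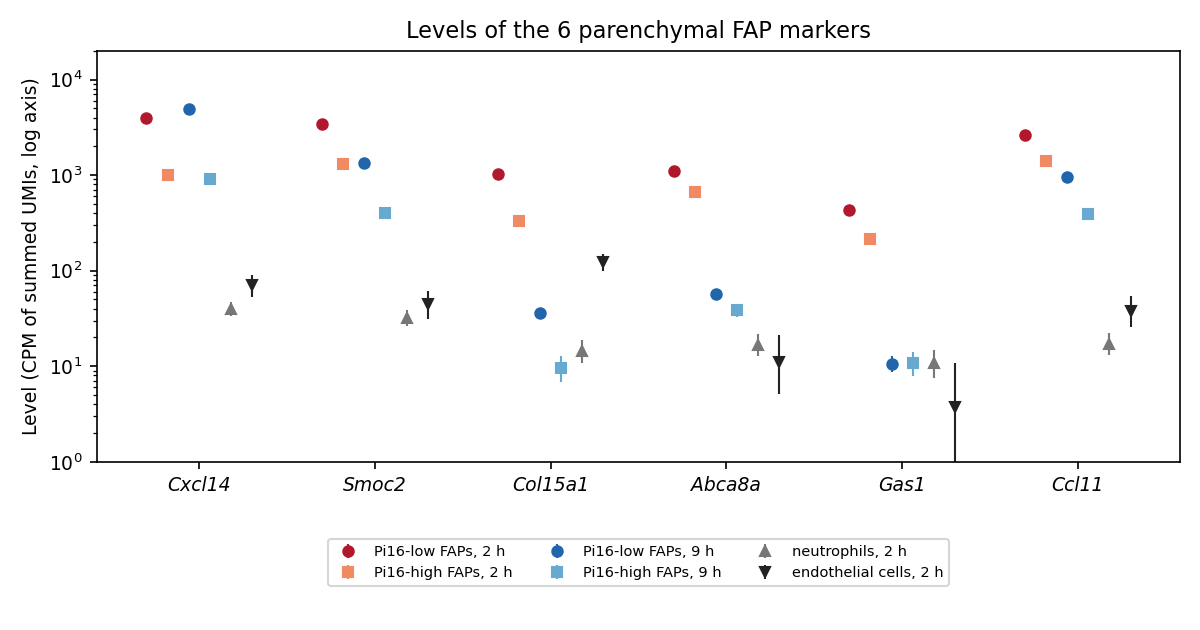
Levels of the 6 markers (CPM of summed UMIs, log axis) in Pi16-low and Pi16-high FAPs at 2 h, the same gates at 9 h, and neutrophils and endothelial cells at 2 h. Bars are exact Poisson intervals of the counts, and many are smaller than the symbols. In Pi16-low FAPs Col15a1 was at 1024 CPM at 2 h and 35.9 CPM at 9 h, while Cxcl14 was at 3993 and 4935 CPM.

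Summed over cells, RNA of other cell types was thin in Pi16-low FAPs, though some single cells held far more. The 8 neutrophil genes, led by S100a9 at 208 and S100a8 at 196 CPM, summed to 561 CPM in Pi16-low and 531 CPM in Pi16-high FAPs, against 38530 CPM in cells outside the gate. The 8 macrophage genes summed to 63.3 and 130 CPM, the 8 endothelial genes to 34.0 and 16.1 CPM and the 8 tendon genes, of which the gate lets at most 2 through per cell, to 89.4 and 110 CPM. Each of these genes had at least 1 UMI in Pi16-low FAPs. Within single Pi16-low FAPs, the neutrophil genes had a median of 154 CPM, a 90th percentile of 591 CPM and a highest value of 51044 CPM. The macrophage genes had a median of 0 CPM and a highest value of 11426 CPM. Of the genes of other types, Cdh15 (satellite cells), Sox10 (Schwann cells) and Cd3e, Cd3d, Nkg7 and Trbc2 (lymphocytes) were at 0. Their part in the values below was not tested.

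Across the transcriptome Pi16-low and Pi16-high FAPs were close. A gene counted as called when its log2 ratio (with 10 CPM added to both levels) was at least 1 either way. Of 8470 genes measured with at least 100 UMIs over both groups, 90 (1.06%) were called higher and 142 (1.68%) lower in Pi16-low FAPs, and the median log2 ratio of all genes was -0.03. Adding 1 CPM in place of 10 gave 228 higher and 209 lower.

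Cxcl14 and Col15a1, given above, were 2 of the 12 genes named for the highest ratios. Spon1, an extracellular protein of the F-spondin family, was at 117 CPM in Pi16-low and 23.3 CPM in Pi16-high FAPs (5.02-fold, interval 4.16 to 6.11). Fbln7, a fibulin, was at 171 and 40.7 CPM. Bmp5, a bone morphogenetic protein, was at 148 and 38.8 CPM, and Gdf10, a more distant member of the same family, at 120 and 35.4 CPM. Nmb, which encodes the peptide neuromedin B, was at 123 and 34.1 CPM. Steap4, a metalloreductase, and Crispld2, a secreted protein, were among the more abundant, at 564 and 762 CPM in Pi16-low FAPs, against 161 and 224 CPM in Pi16-high FAPs. Col18a1, the parent of endostatin, and Cav1, a coat protein of caveolae, were each about as far apart, with log2 ratios of 1.41 and 1.40.

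Basement membrane genes were mostly higher in Pi16-low FAPs. Of 16 basement membrane genes, 14 were higher and 6 of these, Col15a1 included, were called, with a median log2 ratio of 0.83. The type IV collagen chains Col4a1 and Col4a2, the main net of basement membranes, were at 2724 and 1053 CPM in Pi16-low FAPs, against 1126 and 417 CPM in Pi16-high FAPs. Nid2, a nidogen that links collagen to laminin, was at 179 and 66.4 CPM, whereas its relative Nid1 was at 1378 and 1596 CPM. The 6 fibril collagens were all higher but none was called (median 0.30). Col3a1 was at 7624 and 5784 CPM and Col1a1 at 2355 and 2034 CPM.

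Adventitial genes were lower in Pi16-low FAPs. Of 17 adventitial genes, all 17 had a log2 ratio below 0 and 14 were called. Igfbp5, a binding protein of insulin-like growth factors, was at 377 CPM in Pi16-low and 2635 CPM in Pi16-high FAPs. Sema3c, a semaphorin guidance cue, was at 102 and 607 CPM, and Anxa3, an annexin, at 130 and 645 CPM. Efhd1, a mitochondrial calcium-binding protein, was at 38.4 and 239 CPM. The genes with the strongest contrast were nearly silent in Pi16-low FAPs: Sbsn, Dmkn and Car8 were at 5.01, 0.119 and 4.65 CPM, against 292, 187 and 122 CPM in Pi16-high FAPs. Aldh1a3, an enzyme that makes retinoic acid, was at 7.27 and 135 CPM. Smpd3, a sphingomyelinase, was at 30.4 and 180 CPM. Dpp4 was at 51.7 and 311 CPM, Limch1 at 13.3 and 107 CPM and Plac8 at 21.2 and 151 CPM. Tppp3, also on the adventitial list, was nearly level at 369 and 380 CPM.

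Elastic fibre and growth factor genes were mixed. Of 17 elastic fibre genes, 4 were called lower (Fbn1, Mfap5, Emilin2 and Efemp1) and none higher. Fbn1, which builds microfibrils, was at 815 CPM in Pi16-low and 1806 CPM in Pi16-high FAPs. Fn1, fibronectin, was at 1108 and 3304 CPM. Of 16 measured growth factors, 5 were called lower, among them Vegfa, the main growth factor of vessels, at 116 and 246 CPM, and Vegfd at 16.8 and 67.6 CPM. The Wnt list had 3 of 8 called lower and 1 higher. Its secreted antagonists differed, with Sfrp1 at 95.6 and 42.6 CPM and Sfrp2 at 39.8 and 128 CPM. Has1, which makes hyaluronan, was at 720 and 1325 CPM, and 6 of 7 hyaluronan and provisional matrix genes had log2 ratios below 0 with none called.

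Lipid and steroid genes were mostly higher. Of 12 measured genes of lipid handling, 10 were higher and 3 called. Lpl, lipoprotein lipase, was at 1420 CPM in Pi16-low and 643 CPM in Pi16-high FAPs. Apod, a carrier of small lipids, was at 1036 and 414 CPM, and Plin2, which coats lipid droplets, at 86.1 and 33.7 CPM. Pparg, the master factor of fat cell formation, was at only 2.03 and 1.14 CPM. Hsd11b1, which turns inactive glucocorticoid into its active form, was at 221 and 83.1 CPM.

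Stress genes were higher in Pi16-low FAPs as a whole list and by small amounts. All 21 immediate early genes, transcribed within minutes of a stimulus, had log2 ratios above 0 (median 0.42), with Jun and Fosb called. Jun was at 1725 CPM in Pi16-low and 730 CPM in Pi16-high FAPs and Fos at 2037 and 1162 CPM. All 12 heat shock genes, chaperones of damaged protein, were higher too (median 0.80) with 1 called, the co-chaperone Dnaja1, at 1611 and 761 CPM. Fos was also abundant in neutrophils (1898 CPM) and endothelial cells (1536 CPM) of the same suspension. The interferon-induced list was level, with 9 genes higher and 11 lower of 20, none called, and a median of -0.04.

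Other groups of secreted factors differed in single members. Of 19 genes of bone morphogenetic protein and TGF-beta signalling, 3 were called higher, Bmp5, Gdf10 and Bmper, and 1 lower, Bmp6. Bmper, an extracellular modulator of these ligands, was at 165 CPM in Pi16-low and 70.4 CPM in Pi16-high FAPs. Of 11 complement genes, 2 were called higher and 1 lower. Clu, clusterin, was at 79.9 and 28.2 CPM, and Cd55, a membrane protein that shields cells from complement attack, at 165 and 674 CPM. Igfbp7 was at 948 and 437 CPM, opposite to Igfbp5. Of 7 small proteoglycans only Lum, lumican, was called, at 1977 and 800 CPM.

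The chemokine Ccl2, which draws monocytes, was nearly level between the groups, at 696 CPM in Pi16-low FAPs (678 to 714) and 640 CPM in Pi16-high FAPs (618 to 662). With 1000 UMIs per cell, Ccl2 was found in 15.1% of Pi16-low FAPs (unthinned 28.7%), against 17.4% of Pi16-high FAPs (28.6%), and in 1.21% of neutrophils. Pi16-low FAPs held 40.7% of the Ccl2 UMIs of the 2 h library. The neutrophil attractant Cxcl5 was at 69.5 and 18.6 CPM, from 4.37% and 2.46% of unthinned cells, with 0.278% of neutrophils.

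**Figure D3:**
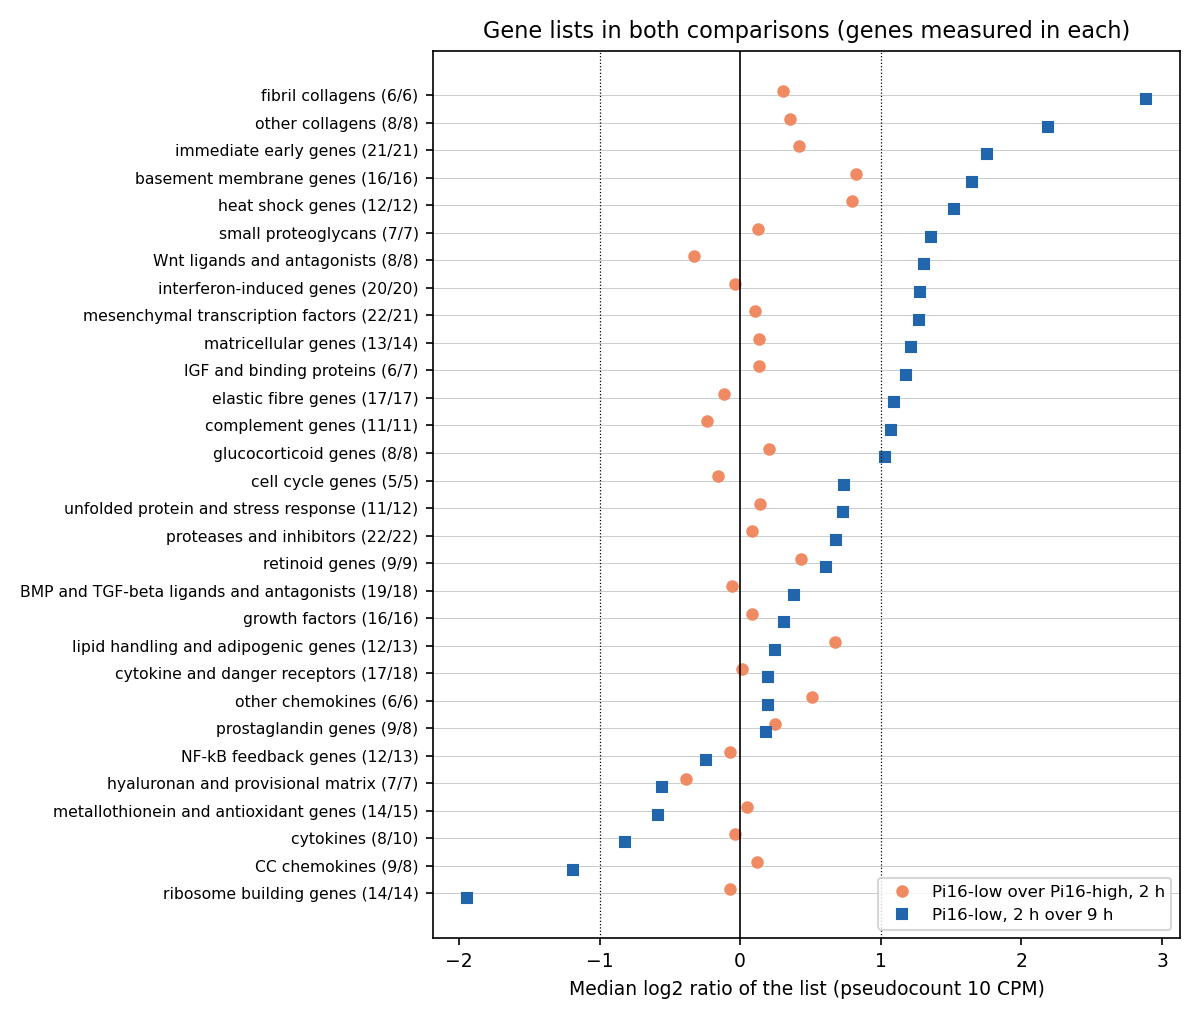
Median log2 ratio (10 CPM added to both levels) of each gene list with at least 5 measured genes, for Pi16-low over Pi16-high FAPs at 2 h (circles) and for Pi16-low FAPs at 2 h over 9 h (squares). Numbers after a name are the genes measured in each comparison, and dotted lines mark a log2 ratio of 1 either way. Basement membrane and heat shock genes had medians of 0.83 and 0.80 in the first comparison, and ribosome building genes had the lowest median of the second, -1.94.

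Between the times the same gate gave cells that were much further apart. Of 9097 measured genes, 1087 (11.9%) were called higher and 867 (9.53%) lower in Pi16-low FAPs at 2 h than in Pi16-low FAPs at 9 h, with a median log2 ratio of -0.02. Pi16 itself was at 1105 CPM in all gated FAPs at 2 h and 520 CPM at 9 h, so the limit of 1 Pi16 UMI may not take the same cells at both times, which was not tested. Time and library cannot be told apart here. The neutrophil genes summed to 561 CPM in Pi16-low FAPs at 2 h and 1221 CPM at 9 h, the macrophage genes to 63.3 and 27.0 CPM and the endothelial genes to 34.0 and 59.6 CPM, and their part in the values below was not tested.

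The 6 markers parted over time. Gas1 was at 436 CPM at 2 h and 10.5 CPM at 9 h (41.5-fold, interval 34.3 to 50.5). Col15a1 was at 1024 and 35.9 CPM (28.5-fold, 25.8 to 31.7) and Abca8a at 1104 and 56.4 CPM (19.6-fold, 18.0 to 21.3). Smoc2 was at 3403 and 1339 CPM and Ccl11 at 2602 and 949 CPM. Cxcl14 was the exception, at 3993 and 4935 CPM, and its share of thinned cells with a UMI was 64.9% at 2 h and 63.8% at 9 h. Marker lists of other kinds were higher at 2 h too, with 12 of 17 adventitial genes called higher and 1 lower (median 1.68) and 8 of 12 genes of all FAPs called higher (median 1.47). The 6 markers together summed to 12561 CPM at 2 h and 7326 CPM at 9 h in Pi16-low FAPs, against 4943 and 1768 CPM in Pi16-high FAPs. Col15a1 was found in 52.4% of thinned cells at 2 h and 3.57% at 9 h. In Pi16-high FAPs Cxcl14 was lower than in Pi16-low FAPs at 9 h as well (919 CPM).

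Most collagen genes were higher at 2 h, while other matrix genes ran both ways. Of 8 collagens outside the fibril and basement membrane lists, 6 were called higher and 2 were lower without being called. All 6 fibril collagens were called higher (median 2.88), with Col1a1 at 2355 CPM at 2 h and 268 CPM at 9 h, and Col5a1, a regulator of fibril width, at 733 and 46.3 CPM. Eln, elastin, was at 238 and 7.42 CPM, and 12 of 17 elastic fibre genes were called higher and 1, Lox, lower. Of 7 hyaluronan and provisional matrix genes, 3 were called higher and 3 lower (median -0.56), and of 14 matricellular genes 8 were called higher and 2 lower. Of 16 basement membrane genes all were higher and 12 were called, yet Col4a1 was at 2724 and 1887 CPM and was not called. The surface antigens Cd34 and Cd248, used to mark stromal cells, were at 673 and 147 CPM at 2 h, against 42.4 and 5.45 CPM at 9 h. Angptl1, a secreted angiopoietin-like protein, was at 429 and 20.8 CPM. Dpysl2, which acts on microtubules, was at 239 and 11.2 CPM. Tppp3, a tubulin-binding protein, had the highest ratio of all named genes, with 369 and 6.67 CPM (55.3-fold, 43.7 to 71.0). The transcription factors Creb5 (367 and 16.6 CPM) and Nfia (510 and 63.3 CPM) were called higher, and 12 of 21 measured mesenchymal transcription factors were called higher with none lower.

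Early stress genes were also higher at 2 h. Of 21 immediate early genes, 17 were called higher and 1, Ier3, lower. Atf3, a stress-induced repressor, was at 571 CPM at 2 h and 45.9 CPM at 9 h, Klf4 at 1191 and 141 CPM, and Fos at 2037 and 291 CPM. Of 12 heat shock genes, 9 were called higher, with Dnajb1 at 903 and 113 CPM, whereas the mitochondrial chaperones Hspd1 and Hspe1 had log2 ratios of -0.49 and -0.01. The interferon-induced list was higher in all 20 measured genes with 15 called. Its members with the strongest contrast were Ifit1, at 116 and 6.67 CPM, and Irgm1, at 132 and 10.4 CPM. Tnfaip6, which cross-links hyaluronan, was at 1749 and 246 CPM.

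Several chemokine and cytokine genes were lower at 2 h. All 4 ligands of the neutrophil receptor CXCR2 were called lower. Cxcl5 was at 69.5 CPM at 2 h and 14603 CPM at 9 h (210-fold lower, 194 to 228), Cxcl3 at 12.8 and 1538 CPM, Cxcl2 at 169 and 3751 CPM and Cxcl1 at 1508 and 6669 CPM. Cxcl2 and Cxcl3 are close relatives that were abundant in neutrophils, and the part of shared reads or of neutrophil RNA in their values was not tested. Ccl2 was at 696 and 9827 CPM (14.1-fold lower, 13.8 to 14.5). The alarmin Il33 was at 211 and 2225 CPM, and its receptor gene Il1rl1 at 2.86 and 532 CPM. Saa1, an acute phase protein, was at 13.8 and 666 CPM. Tnc, a matrix protein of wounds, was at 4.53 and 308 CPM, and Prg4, the lubricant lubricin, at 1275 and 10400 CPM. Angptl4, an inhibitor of lipoprotein lipase, was at 23.8 and 379 CPM while Lpl was at 1420 and 291 CPM. Aldh1a3 was at 7.27 and 119 CPM. Hmga2, a chromatin protein of growing cells, was at 0.834 and 121 CPM. Of 14 ribosome building genes 13 were called lower and none higher (median -1.94), with nucleolin (Ncl) at 331 and 1902 CPM.

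Proteases, their inhibitors and ligands of the TGF-beta family ran both ways between the times. Of 22 proteases and inhibitors, 9 were called higher and 6 lower at 2 h. Mmp2, a gelatinase, was at 1102 CPM at 2 h and 388 CPM at 9 h, whereas Mmp3, stromelysin, was at 119 and 669 CPM. The tissue inhibitors of these enzymes parted in the same way, with Timp2 at 1245 and 380 CPM and Timp1 at 112 and 809 CPM. Bmp5 was at 148 and 29.3 CPM, while Fst, follistatin, which binds activins, was at 545 and 1942 CPM. Of 11 complement genes, 7 were called higher at 2 h and none lower, with C3 at 1878 and 723 CPM. Of 8 genes tied to glucocorticoids, 4 were called higher, among them the receptor Nr3c1, at 143 and 60.0 CPM, and its target Tsc22d3, at 311 and 122 CPM. Mt1 was at 20742 and 31034 CPM and Mt2 at 8122 and 17142 CPM.

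Pi16-low FAPs differed from one another in the UMIs of heat shock, immediate early, chemokine, matrix and other genes. Variation was read in the 973 cells thinned to 3000 UMIs, as the variance of a gene's UMIs over their mean. Genes of the rule, mitochondrial, ribosomal protein, haemoglobin and unnamed genes were set aside. So were genes with a higher level in neutrophils or outside the FAP gate. This left 2480 genes with a mean of at least 0.1 UMI. The median of these genes had a ratio of 1.10, near the value of 1 that counting alone gives. The heat shock genes Hspa1b and Hspa1a had ratios of 32.3 and 29.3, the highest of the 2480. S100a9, a neutrophil gene set aside in this way, had 28.8. Hspa1b had a median of 10 and a highest value of 204 UMIs, and 41.8% of its UMIs lay in the 10% of cells richest in it. That share was below the median of 61.5% over the 2480 genes. Apod had a ratio of 29.2, Mt1 of 24.0, Ptx3 of 22.7, Fos of 21.3 and Ccl11 of 20.5. Mt1, a metallothionein that binds zinc and copper, was broad, with a median of 62 UMIs and a UMI in 99.6% of cells. Ccl2 was narrow: 23.0% of cells had a UMI and the richest 10% held 84.9% of the UMIs. Of the 20 genes with the highest ratios, 19 were the same when cells were thinned to 1000 UMIs.

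The sequences around the starts of 2 heat shock and 2 metallothionein genes are shown. They were picked because, among Pi16-low FAPs at 2 h, the members of each pair went together and the pairs went against each other. Of the 4, Mt2 was not among the 20 most variable genes, with a ratio of 10.5. They are RefSeq promoters on GRCm38.p6, from 250 bases before to 50 after the start of the gene, printed on the gene's strand. Capitals in the first pair mark the core of the metal response element, the site of the zinc sensor MTF1, searched as TGCACNC or TGCGCNC on both strands. Mt1 (chr8:94178839-94179138, plus strand) held 3 matches and Mt2 (chr8:94172368-94172667, plus strand) 4. At least 1 match was present in 25.7% of all 32851 promoters of that length and 3 or more in 1.97%. Capitals in the second pair mark a pair of heat shock units, searched as GAANNTTC or TTCNNGAA, which 15.1% of promoters held. Hspa1a (chr17:34972107-34972406, minus strand) and Hspa1b (chr17:34959189-34959488, minus strand) each held 1, and 296 of their 300 bases were identical. A match is a run of letters and not a shown site.
Mt1: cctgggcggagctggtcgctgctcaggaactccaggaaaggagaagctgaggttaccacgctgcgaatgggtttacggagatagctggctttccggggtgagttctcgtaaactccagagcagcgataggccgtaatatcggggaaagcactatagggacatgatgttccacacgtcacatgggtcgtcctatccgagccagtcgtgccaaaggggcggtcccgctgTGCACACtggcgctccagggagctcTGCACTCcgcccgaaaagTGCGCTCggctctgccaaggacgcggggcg
Mt2: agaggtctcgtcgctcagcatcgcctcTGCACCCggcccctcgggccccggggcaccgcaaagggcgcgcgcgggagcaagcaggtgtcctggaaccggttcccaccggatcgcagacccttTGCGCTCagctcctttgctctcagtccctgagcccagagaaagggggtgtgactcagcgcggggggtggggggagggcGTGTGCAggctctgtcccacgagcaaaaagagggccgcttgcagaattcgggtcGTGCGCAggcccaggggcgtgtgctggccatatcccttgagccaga
Hspa1a: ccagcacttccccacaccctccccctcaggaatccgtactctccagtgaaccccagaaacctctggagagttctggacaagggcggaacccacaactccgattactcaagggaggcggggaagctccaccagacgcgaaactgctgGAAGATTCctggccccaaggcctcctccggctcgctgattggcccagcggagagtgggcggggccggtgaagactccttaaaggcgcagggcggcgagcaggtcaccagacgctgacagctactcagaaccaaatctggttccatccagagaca
Hspa1b: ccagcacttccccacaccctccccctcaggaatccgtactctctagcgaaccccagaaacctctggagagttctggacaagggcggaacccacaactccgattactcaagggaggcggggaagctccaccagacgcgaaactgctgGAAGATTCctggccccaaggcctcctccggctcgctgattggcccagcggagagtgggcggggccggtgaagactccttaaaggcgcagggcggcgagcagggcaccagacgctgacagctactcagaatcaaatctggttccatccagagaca

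Correlation across the 973 cells put these genes into blocks. The values are Spearman's rho at equal depth over cells of 1 library, the extra genes were picked after their values were seen, and the counts of a cell share its 3000 UMIs, so a very abundant gene lowers the others. Fos went with Jun (0.65) and Egr1 (0.64) and with Hspa1b (0.46). Mt1 and Mt2 went together (0.78) and against the first block, with -0.47 for Fos and Mt2 and -0.37 for Hspa1b and Mt2. Hspa1a and Hspa1b had a rho of 0.70, but their transcripts are near-identical copies and counting may split reads between them. Mt1 and Mt2 are close relatives, for which this was not tested. Another block held parenchymal markers: Smoc2 with Col15a1 (0.56), Cxcl14 with Lpl (0.50) and Cxcl14 with Col15a1 (0.46). Not all markers joined it: Gdf10, on the further parenchymal list, was at -0.28 with Smoc2, -0.22 with Col15a1 and 0.30 with Prg4, and Gas1 was at 0.14 with Abca8a. Prg4 ran against it, with -0.43 for Lpl and -0.38 for Cxcl14. Ccl2 went with its neighbour gene Ccl7 (0.45) and only weakly with Il6 (0.20).

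The same pairs were read in cells that the rule had not chosen. In 558 Pi16-high FAPs, Fos and Mt2 had a rho of -0.30 and Fos and Jun 0.49. In 1192 Pi16-low FAPs at 9 h, Fos and Mt2 were at 0.00 while Mt1 and Mt2 stayed at 0.63. Hspa1b and Mt2 were at -0.16 in Pi16-high FAPs and at 0.18, the opposite sign, in Pi16-low FAPs at 9 h. Fos and Mt1 were at -0.19 and 0.17 in the same order. Smoc2 with Col15a1 was at 0.67 in Pi16-high FAPs and 0.24 in Pi16-low FAPs at 9 h, where few cells carried Col15a1. The rho of Prg4 and Cxcl14 was 0.12 in Pi16-high FAPs and -0.20 in Pi16-low FAPs at 9 h. Ccl2 and Ccl7 were at 0.50 in Pi16-high FAPs and 0.72 in Pi16-low FAPs at 9 h.

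**Figure D4:**
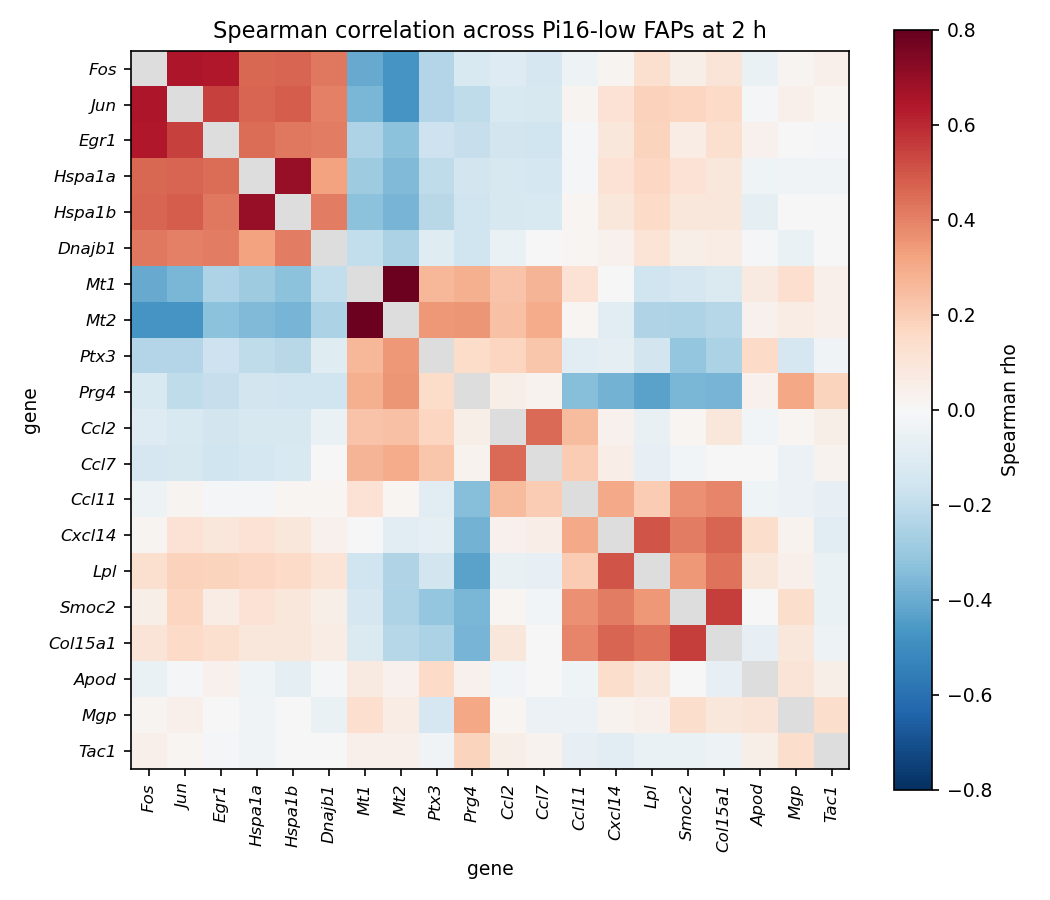
Spearman's rho between 20 genes across 973 Pi16-low FAPs at 2 h, each thinned to 3000 UMIs. Red is positive and blue negative. The immediate early and heat shock genes form a red block at the upper left, set against Mt1 and Mt2 (Fos and Mt2 at -0.47), and the parenchymal markers form another.

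The blocks can be shown in UMIs per cell. The 98 cells with the most Fos (at least 21 UMIs) had a mean of 7.84 Mt2 UMIs, against 26.3 in the other 875 cells, and 12.4 Dnajb1 UMIs, against 1.64. Chemokines were uneven in them, with 0.173 UMIs of Ccl2, against 2.08 in the others, 3.27 of Cxcl1, against 4.60, and 11.0 of Cxcl14, against 11.9. Ptx3, a pentraxin of innate defence, was at 0.296 UMIs, against 4.03. The 98 cells with the most Mt2 had 0.765 Fos UMIs, against 6.74, and 9.70 Prg4 UMIs, against 3.47. Depth before thinning was near equal for Fos, with medians of 8284.5 UMIs in the Fos-rich cells and 8152 in the others. Their mitochondrial shares were 3.53% and 3.80%. The 98 cells with the most Ccl2 (at least 5 UMIs) had 12.5 Ccl7 UMIs, against 1.80, and 9.68 Ptx3 UMIs, against 2.98, while Cxcl14 was at 12.7 and 11.7. The 98 cells with the most Prg4 had 4.80 Cxcl14 UMIs, against 12.6, 1.07 of Col15a1, against 3.21, and 4.50 of Has1, against 1.88. They also had more of the tendon genes Comp (0.490 UMIs, against 0.0434) and Thbs4 (0.408, against 0.105). The part of tendon-like cells among them was not tested. Before thinning, the Ccl2-rich cells had a median of 9012 UMIs, against 8098, and the Prg4-rich cells 7522, against 8262. The part of depth in these contrasts was not tested. The cells of each set were chosen by a measured gene, so these are descriptions.

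**Figure D5:**
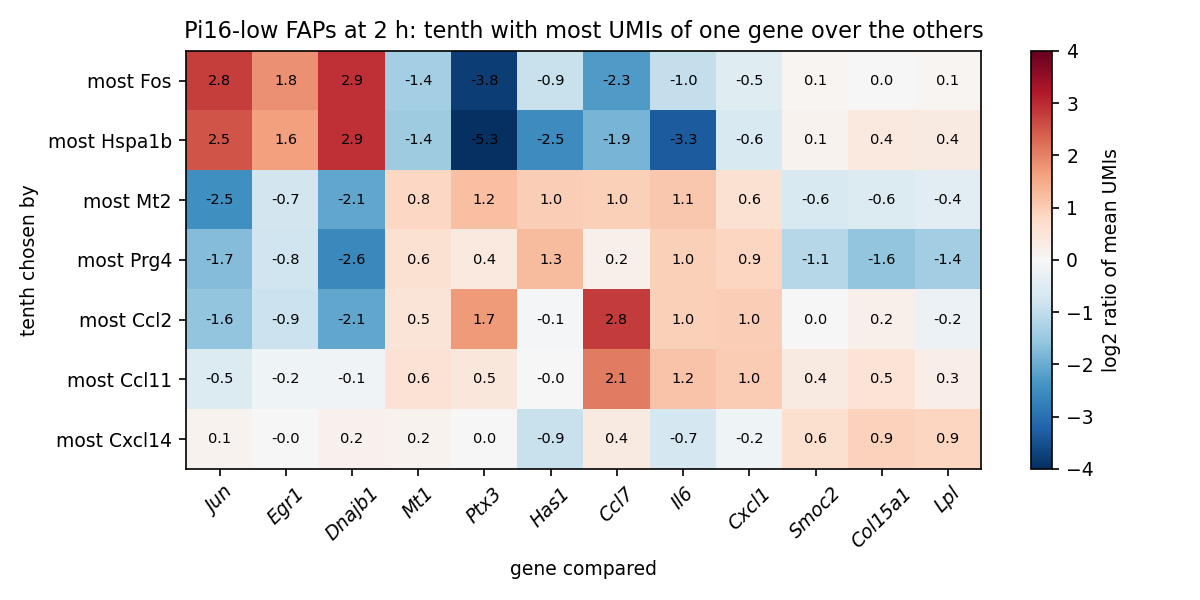
For 7 genes (rows), the log2 ratio of mean UMIs of 12 other genes (columns) in the 98 Pi16-low FAPs at 2 h with the most UMIs of the row's gene over all other Pi16-low FAPs, at 3000 UMIs per cell. The rows chosen by Fos and Hspa1b look alike and run against the row chosen by Mt2, as with Dnajb1 in Fos-rich cells (12.4 UMIs, against 1.64).

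One peptide gene was carried by few cells. Tac1, the precursor of substance P, had a UMI in 52 of 1030 Pi16-low FAPs, in 14 of 569 Pi16-high FAPs and in 1 of 1439 neutrophils, unthinned. The Pi16-low FAPs held 59.5% of its UMIs in the 2 h library, 816 of 1371, but 10 of these cells held 535 of the 816 and 1 cell had 100. Of the members thinned to 3000 UMIs, the 39 with a Tac1 UMI had 9.44 Prg4 UMIs on average, against 3.88 in the other 934, 10.2 of Mgp, an inhibitor of calcification, against 4.26, and 6.05 of Cxcl14, which was 0.503 times the mean of the other cells.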

How the data were processed

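Values were UMI counts per gene and cell barcode, deposited by the authors as 1 matrix per library. Per the submitters' processing notes they were made with Cell Ranger 5.0.0 on mm10, and their annotation release is not given in the sources used here. Matrices held 5729 barcodes at 2 h (28635763 UMIs) and 8790 at 9 h (36042307 UMIs). Cells with at least 200 genes, at least 500 UMIs and at most 20% mitochondrial UMIs were kept. Gates used the deposited counts, and groups were compared as summed UMIs per 1000000 (CPM), with exact Poisson intervals for levels and exact conditional binomial intervals for ratios. UMIs of cells from 1 library are not replicates, so no test was run. Scrublet in scanpy 1.11.5 marked 6 cells at 2 h (0.122%) and 0 at 9 h, too few to have worked, and its calls were not used. An alternative setting left out the cells with the highest scores of the same run, 225 at 2 h and 573 at 9 h. That setting is thus a weak check on doublets. A thinned cell had its UMIs drawn down to 1000 (shares) or 3000 (variation), leaving out shallower cells. Named genes had at least 100 CPM in the group where they were higher and there reached 20% or more of the mean across kept cells, and the 12 highest and 12 lowest log2 ratios were taken, leaving out genes of the rule, mitochondrial, ribosomal protein, haemoglobin and unnamed genes. A few genes that the rule or the lists take are not reported here. Genes from the lists were added by level or size of difference. The members, lists and named genes were chosen with earlier results of these data known. Gene positions came from GENCODE on mm10, which matched 32235 of 32285 IDs. For TMM, edgeR 4.0.16 (R 4.3.3) was run, and other steps used numpy 2.4.6, scipy 1.17.1 and pandas 2.3.3. Tested on counts simulated with counting noise alone, the fold rule recovered 79.5% of 4-fold changes among 8470 genes for Pi16-low against Pi16-high FAPs. It recovered 85.5% among 9097 genes for 2 h against 9 h, and called 0 unchanged genes in either. The simulation had no variation between cells or libraries, so it gives no rate of false calls for these data.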

Additional observations from a re-analysis of the deposited data

Results flagged for a closer look

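For the 3 genes flagged here, the ratio of 2 h over 9 h lay on opposite sides of 1 in Pi16-low and Pi16-high FAPs. All 3 were also named above for their contrast between these groups at 2 h, so their 2 h values had a part in that choice. For Cxcl14 it was 0.809 in Pi16-low and 1.09 in Pi16-high FAPs. For Plac8, a small cysteine-rich protein, it was 0.495 in Pi16-low and 1.13 in Pi16-high FAPs. For Limch1, which activates non-muscle myosin, it was 0.605 in Pi16-low and 3.13 in Pi16-high FAPs. Pi16 was at 1105 CPM in gated FAPs at 2 h and 520 CPM at 9 h, so the limit may not take the same cells at both times. Each group is 1 library per time, and the difference between the groups was not tested.

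Pi16, the gene that split the FAPs, had signal in cells outside the FAP gate. Neutrophils had 161 CPM at 2 h and 69.6 CPM at 9 h, which was 14.6% and 13.4% of the level in gated FAPs of the same library. Of 6 other FAP genes compared, the same shares lay between 1.41% for Cxcl14 and 9.93% for Ly6c1 at 2 h, and between 2.15% for Cxcl14 and 14.0% for Ly6c1 at 9 h, where Ly6c1 was above Pi16. For Dcn they were 2.36% and 3.26%. At 2 h, 401 of 1439 neutrophils (27.9%) had a Pi16 UMI and 1 cell had 40. The source of these UMIs was not tested.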

How the results depend on the processing

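Adding 1 CPM in place of 10 before the log2 ratio gave 228 genes higher in Pi16-low than in Pi16-high FAPs (90 with 10 CPM), and 1826 higher and 1483 lower in Pi16-low FAPs at 2 h than at 9 h (1087 and 867). TMM scaling gave 913 higher and 1073 lower between the times, so the share of calls that were higher was 46.0%, against 55.6%, and moved the median log2 ratio to -0.12. The named genes kept their sign under all 9 alternatives, 28 of 28 against Pi16-high FAPs and 27 of 27 between the times. Most were named for large ratios in these same data, so a change of sign was unlikely. Dropping the filter on low counts or adding 1 CPM in place of 10 could not change a sign at all. Of 26 named genes called against Pi16-high FAPs, 25 kept the call with cells of 4000 to 16000 UMIs or up to 10% mitochondrial UMIs. The mean of each cell's CPM also kept 25, and the other settings kept all 26. With Pi16 counted after thinning, 70 of the 90 genes called higher against Pi16-high FAPs kept their call, and 132 of the 142 called lower. The alternatives were 0 Pi16 UMIs, Pi16 counted after thinning, cells of 4000 to 16000 UMIs and up to 10% mitochondrial UMIs. The others were no highest doublet scores, TMM, no filter on low counts, 1 CPM, and the mean of each cell's CPM. The lists of CXCR2 ligands, cytokine and danger receptors, and metallothionein and antioxidant genes had medians near 0 against Pi16-high FAPs and changed sign with the setting. No paired analysis was possible because each time had 1 library. No replicate could be left out for the same reason.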
